A study of Mus musculus with 2 samples.

Results

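The semaphorin, plexin, neuropilin, Slit, Robo and netrin genes encode secreted and membrane cues and their receptors, which guide growing axons, vessels and migrating cells. They were taken from the gene tables by symbol: Sema3 to Sema7, Plxna to Plxnd, Nrp1 and Nrp2, Slit1 to Slit3, Robo1 to Robo4, the numbered Ntn genes, Unc5a to Unc5d, Dcc and Neo1. The rule found 47 genes among the 43346 gene entries, with 260 transcripts in the transcript tables. Of these genes 7 encode secreted class 3 semaphorins, 13 membrane semaphorins of classes 4 to 7, 2 neuropilins, 9 plexins, 3 Slits, 4 Robos, 3 netrins and 6 netrin receptors. A gene symbol that fits the rule, Ntn3, had no entry under its current identifier and was not analysed here.

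Total RNA was sequenced from limb of healthy mouse embryos of the strain labelled B6NCrl at embryonic day 11.5, as 2 libraries of 1 untreated group. For replicate 1 limbs of 109 embryos were pooled, for replicate 2 those of 88, males and females together, and the labels do not separate forelimb from hindlimb. Each library was made from 10 ng of RNA longer than 200 nt with spike-in RNAs added. With 1 group there was no contrast between conditions, so levels are given for each library and the only test compares the pools with each other. With 1 library a pool, the p-values of the binomial test cover counting error only and treat reads amplified from little RNA as independent molecules. They compare these libraries, and the differences may in part be technical. Replicate 1 had 40.6 M expected counts on genes, replicate 2 32.3 M. The limb label was checked against its markers, and 8 of 8 limb mesenchyme genes, Prrx1, Msx1 and Pdgfra among them, reached 1 TPM in both libraries, with summed levels of 778 and 744 TPM. TPM (transcript abundance scaled to a fixed total) is a length-corrected share of the RNA in a library, so levels of different genes can be set side by side on this scale.

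Class 3 semaphorins are secreted and bind a neuropilin, which pairs with a plexin as the signalling chain, while most membrane semaphorins bind plexins directly. Slits signal through Robo receptors, and netrins through Dcc, neogenin (Neo1) and the Unc5 family. In the limb these cues are known for steering motor and sensory axons and for patterning blood vessels, and several are made by the limb mesenchyme itself. In a bulk sample, fewer cells of a type and less RNA per cell cannot be told apart.

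Most of the guidance genes were present, and the 3 highest were receptors. At a threshold of 1 TPM in both libraries, 33 of 47 were detected (70.2%), beside 56.3% of all 21474 protein-coding genes and 31.3% of all genes. At 10 TPM in both libraries 17 remained (36.2%), a share close to the 37.0% of protein-coding genes. The median member stood at 4.98 TPM, with medians of 4.95 in replicate 1 and 4.73 in replicate 2, beside 3.02 for protein-coding genes. Summed over a family, plexins held 136 and 141 TPM, Robos 98.9 and 106, membrane semaphorins 85.4 and 90.7, neuropilins 72.02 and 73.16, and secreted semaphorins 70.12 and 70.15. Netrin receptors held 48.2 and 46.4 TPM, Slits 37.6 and 44.8, and the netrins together only 3.42 and 4.76.

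**Figure D1:**
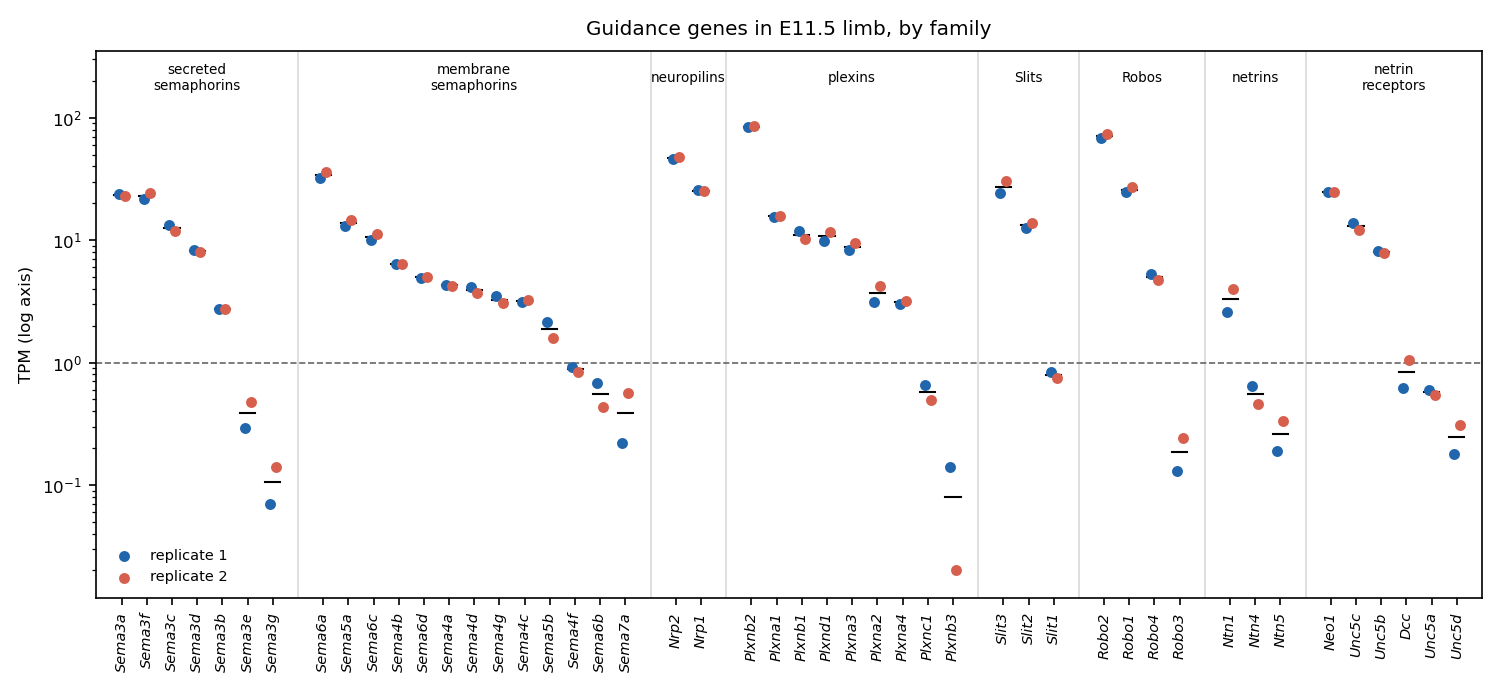
TPM of each guidance gene (log axis) in replicate 1 (blue) and replicate 2 (red), with the mean as a black bar, grouped by family; the dashed line marks 1 TPM. Plxnb2 at 84.7 and Robo2 at 71.5 TPM in mean stand highest, while Sema3g, Plxnb3 and Robo3 lie below 0.3 TPM in both libraries.

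Ordered by mean level, the highest 5 members were Plxnb2, Robo2, Nrp2, Sema6a and Slit3, and among these 5 the values of neighbours did not overlap. Over the whole order, 29 of 46 pairs of neighbours did overlap, and from Slit3 down many genes cannot be ranked against the next by this measure. It sets a gene in 1 library against its neighbour in the other. Some overlapping pairs kept their order within each library, such as Sema5a (13.06 and 14.48 TPM) above Slit2 (12.59 and 13.90). Slit3, Robo1 and Nrp1 overlapped in turn, as did Sema5a, Slit2, Unc5c, Sema3c, Plxnb1, Plxnd1 and Sema6c. The coefficient of variation between the libraries had a median of 6.99% over the detected members and 5.82% over detected protein-coding genes. On the deposited TPM it was lowest for Sema4b at 0.553% and highest, among the detected members, for Ntn1 at 29.8%. Members below the threshold had a median of 35.3%. These TPM are scaled with spike-ins included, and rescaling to gene entries multiplies replicate 1 by 1.13 and replicate 2 by 1.21. The coefficients hold that shift, so they do not measure the agreement of the libraries alone, and the lowest ones depend on it.

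Among the secreted semaphorins, Sema3a and Sema3f led, with overlapping values over all transcripts. Sema3a, the repellent that acts through Nrp1, measured 23.83 TPM in replicate 1 and 22.88 in replicate 2. Sema3f, which acts through Nrp2, measured 21.51 and 24.10 TPM. On complete coding transcripts Sema3f had 14.12 and 16.07 TPM and lay below Sema3a. Sema3c, known for its part in heart outflow tract and vessel formation, measured 13.36 and 11.78 TPM, and Sema3d 8.34 and 8.02. These 4 ligands carried nearly all of the secreted class. Sema3b stood at 2.72 and 2.75 TPM. The remaining members were close to the floor. Sema3e, which differs from the rest of the class in binding Plxnd1 without a neuropilin, had 0.29 and 0.48 TPM from 51 and 74 counts, and Sema3g had 0.07 and 0.14 TPM from 9 and 15 counts. Of the 7 genes, 5 were detected.

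The membrane semaphorins spread over a wide range, and class 6 and class 5 genes led them. Sema6a, a transmembrane ligand of A-type plexins, measured 31.97 and 35.92 TPM, above every other semaphorin in both libraries over all transcripts. On complete coding transcripts alone, the scale described with the isoforms, it measured 17.06 and 20.43 TPM, below Sema3a at 21.64 and 21.38. Sema5a, a membrane semaphorin with thrombospondin repeats, measured 13.06 and 14.48 TPM. Sema6c measured 10.05 and 11.15 TPM and Sema6d 4.95 and 5.01. Of class 4, whose members act mostly through B-type plexins, 5 of the 6 genes were detected and the sixth, Sema4f, was listed at 0.92 and 0.84 TPM. The highest of the class was Sema4b with 6.37 and 6.42 TPM, followed by Sema4a (4.31 and 4.21) and Sema4d (4.13 and 3.72). Sema4d is the ligand known for Plxnb1. Sema4g at 3.48 and 3.06 TPM and Sema4c at 3.13 and 3.25 overlapped. Sema5b had 2.15 and 1.60 TPM, Sema6b 0.68 and 0.43, and Sema7a, which is anchored in the membrane by a lipid, 0.22 and 0.56. In all, 10 of 13 membrane semaphorins were detected.

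Both neuropilins were high, and Nrp2 exceeded Nrp1. Nrp2 measured 46.40 and 47.97 TPM, and Nrp1 25.62 and 25.19. On these deposited values the libraries of each gene lay close together, and the genes did not overlap. Neuropilins are co-receptors with short cytoplasmic tails that bind class 3 semaphorins and also forms of VEGF.

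The plexins, the signalling receptors of semaphorins, were headed by a B-type member. Plxnb2 (chr15:89155549-89180788, minus strand, GRCm38) measured 83.74 TPM in replicate 1 and 85.60 in replicate 2, the highest level of the 47 genes in each library. Plxna1, a partner of neuropilins, measured 15.48 and 15.73 TPM. Plxnb1 measured 11.98 and 10.22 TPM, and Plxnd1, known from endothelial cells, 9.92 and 11.72. Plxna3 measured 8.31 and 9.43 TPM, Plxna2 3.13 and 4.22, and Plxna4 2.98 and 3.21. Plxnc1, the receptor of Sema7a, was under 1 TPM (0.66 and 0.49, from 130 and 59 counts). Plxnb3 was lowest, with 0.14 and 0.02 TPM from 16 and 2 counts, all of them placed on transcripts annotated as retaining an intron. In this family 7 of 9 genes were detected, and of the A-type, B-type, C-type and D-type plexins only the C-type had no detected member. Exons of Plxna1 and Plxnb1 overlap genes on the opposite strand (by 970 and 257 bases in M21), as do exons of Sema4c and Unc5c. Each of these partner genes was below 1 TPM in both libraries. Exons of Ntn5 overlap Sec1 (519 bases, Sec1 at 0.30 and 0.08 TPM) and those of Unc5a overlap Hk3 (34 bases, Hk3 at 0.39 and 0.49). Ntn5 and Unc5a were themselves below 1 TPM in both libraries. Without strand, the reads of such pairs cannot be told apart.

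Of the Slits, Slit3 was the highest with 24.17 and 30.18 TPM and Slit2 followed with 12.59 and 13.90. Slit1, best known from the nervous system, was listed at 0.84 and 0.75 TPM. Among their receptors Robo2 (chr16:73891839-74411825, minus strand) measured 68.81 and 74.26 TPM and its neighbour on the chromosome, Robo1 (chr16:72308306-73046095, plus strand), 24.72 and 26.95. Robo4, an endothelial member of the family, measured 5.25 and 4.73 TPM. The 8 endothelial marker genes, Pecam1, Cdh5 and Tie1 among them, were all detected, with summed levels of 202 and 182 TPM. Robo3, which in the nervous system controls the crossing of the midline, had 0.13 and 0.24 TPM.

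For the netrin pathway the receptors Neo1, Unc5c and Unc5b stood above the highest ligand, Ntn1, and Dcc, Unc5a and Unc5d below it. Ntn1, the classical netrin, measured 2.59 and 3.97 TPM and was the only detected netrin, while Ntn4 had 0.64 and 0.46 TPM and Ntn5 0.19 and 0.33. Ntn4 illustrates how far a length estimate can move a low gene: its expected counts were 27 and 32, while its estimated length was 1604 nt in replicate 1 and 3046 nt in replicate 2. Neo1 measured 24.82 and 24.62 TPM, and on these deposited values the libraries lay close together. Unc5c measured 13.87 and 12.07 TPM and Unc5b, known from endothelial cells, 8.10 and 7.84. Dcc, the receptor that mediates attraction to netrin in axons, had 0.62 TPM in replicate 1 and 1.04 in replicate 2 and was the only member above 1 TPM in just 1 library. Unc5a had 0.60 and 0.54 TPM and Unc5d 0.18 and 0.31. Of 8 neuron markers 7 were detected, with summed levels of 41.0 and 43.7 TPM, Elavl3 being the exception at 0.05 and 0.07. The part of neurons in the levels of Dcc and of the other members was not tested.

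Neo1 is also the receptor of the repulsive guidance molecules. Chosen after their values were seen, Rgma measured 13.28 and 13.10 TPM and Rgmb 15.75 and 15.57. Rgma and Rgmb were therefore listed above Ntn1 in both libraries. Hfe2, which encodes a further member of that ligand family, measured 1.48 and 1.27 TPM, below Ntn1 in both.

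The transcript tables changed the picture for several of the leading genes. A transcript was counted as complete coding when GENCODE M21 gives it a protein-coding type and a complete reading frame. The other classes were coding models with an incomplete frame, transcripts with a retained intron, processed transcripts without a reading frame, and targets of nonsense-mediated decay. Over the 22 members of at least 5 TPM, complete coding transcripts held a median of 82.0% of a gene's TPM, beside 95.5% over 9777 protein-coding genes of that level. They held less than 50% for 6 members (27.3%), beside 11.4% of those genes. A coding transcript with at least 50% of the TPM in both libraries existed for 13 of the 22 members (59.1%), beside 77.0% of protein-coding genes. For 6 members (Robo1, Nrp1, Neo1, Sema3d, Sema5a and Unc5b) the tables hold only 1 transcript, so their share is 100% by construction. Transcript levels are estimates from reads that several models share.

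**Figure D2:**
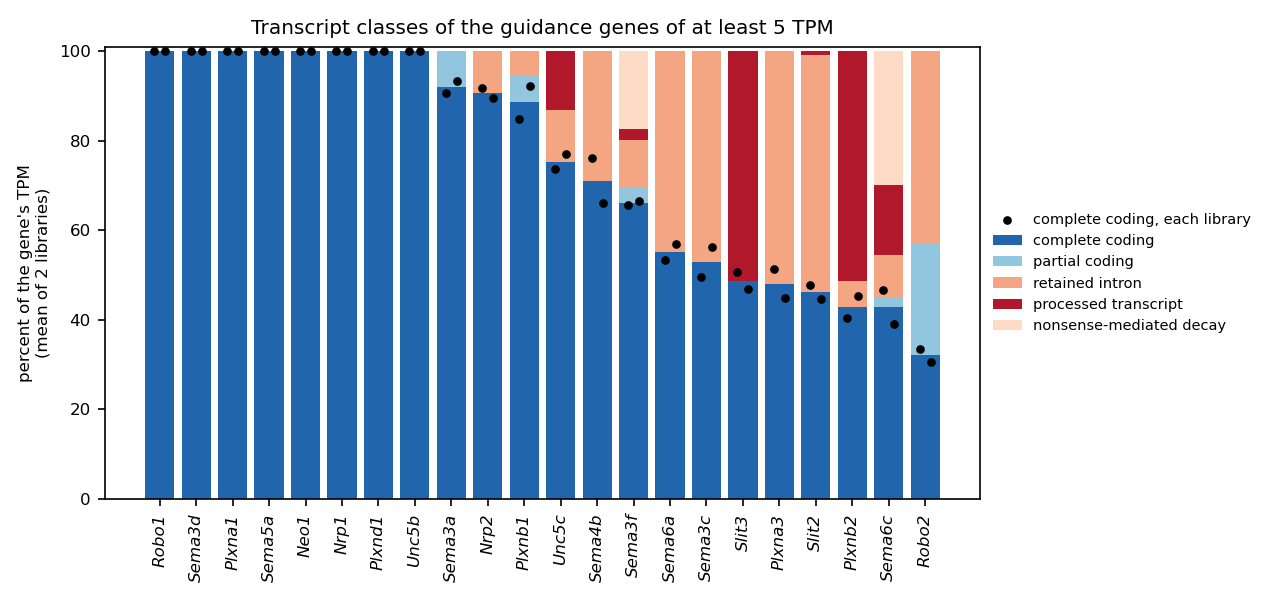
Share of each gene's TPM by transcript class, as the mean of both libraries (bars add to 100%), for the 22 guidance genes of at least 5 TPM; black points give the complete coding share in each library. Robo2, Sema6c, Plxnb2, Slit2, Plxna3 and Slit3 have a complete coding share below 50% in mean.

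Plxnb2 and Robo2 lost the most. For Plxnb2, a processed transcript of 841 nt, Plxnb2-205, held 53.5% and 49.1% of the TPM but only 13.4% and 11.3% of the counts. In M21 it lies at chr15:89155549-89156572, at the 3′ end of the gene, and 100% of its bases fall in exons of the complete coding transcripts. The complete coding transcript Plxnb2-202 held 33.84 and 38.77 TPM. The gap between the share of TPM and the share of counts comes with the length of the models, since each count on a short model weighs more in TPM.

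For Robo2 the pattern differed. Robo2-209, a model of 4057 nt with a retained intron at chr16:74349795-74411825, held 38.1% ± 0.078 of the TPM (SD, n = 2) and also 35.3% and 36.6% of the counts. Of its bases 3289 lie outside the exons of the complete coding transcripts. On complete coding transcripts Robo2 measured 23.04 and 22.80 TPM, or 33.5% and 30.7% of its TPM. Coding models with an incomplete frame, which this scale leaves out, held a further 23.1% and 26.7%. Robo1 measured 24.72 and 26.95 on its only transcript. On this scale the order that holds over all transcripts, Robo2 above Robo1, was therefore turned. With the incomplete coding models kept, Robo2 stays above Robo1 in both libraries, so the turn depends on leaving them out. Since Robo1 has no intron-retaining model in the tables, its reads could not be divided in the same way.

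Slit3 and Slit2, the ligands of these receptors, also had less than 50% of their TPM in mean on complete coding transcripts. Slit3-204, a processed transcript of 459 nt, held 44.7% and 49.0% of Slit3 TPM but 5.72% and 6.72% of counts, and the complete coding Slit3-201 measured 12.26 and 14.13 TPM. Slit2-207, with a retained intron, held 42.6% and 34.8% of Slit2 TPM and 28.7% and 23.9% of counts, and complete coding transcripts of Slit2 measured 6.02 and 6.23 TPM. Slit3 thus remained above Slit2 on both scales.

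Retained-intron models also took a large part of several semaphorins and of Plxna3. Sema3c-205 held 42.4% and 36.6% of Sema3c TPM, and the coding Sema3c-201 measured 6.62 and 6.63 TPM. Sema6a-209 held 31.4% and 26.3% of Sema6a TPM beside 29.5% and 27.7% on the coding Sema6a-201. For Sema4b the retained-intron model Sema4b-203 held 19.0% and 25.3%, and for Plxna3 the model Plxna3-203 held 14.7% and 25.7%. Sema6c was divided between the coding Sema6c-201 (46.6% and 23.6%) and Sema6c-212, a target of nonsense-mediated decay (23.1% and 34.8%). These models share nearly all of their exons and their order differed between the libraries. The Sema3a gene had coding transcripts with different starts and ends, Sema3a-201 with 60.7% and 57.8% and Sema3a-202 with 30.1% and 35.6%.

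**Figure D3:**
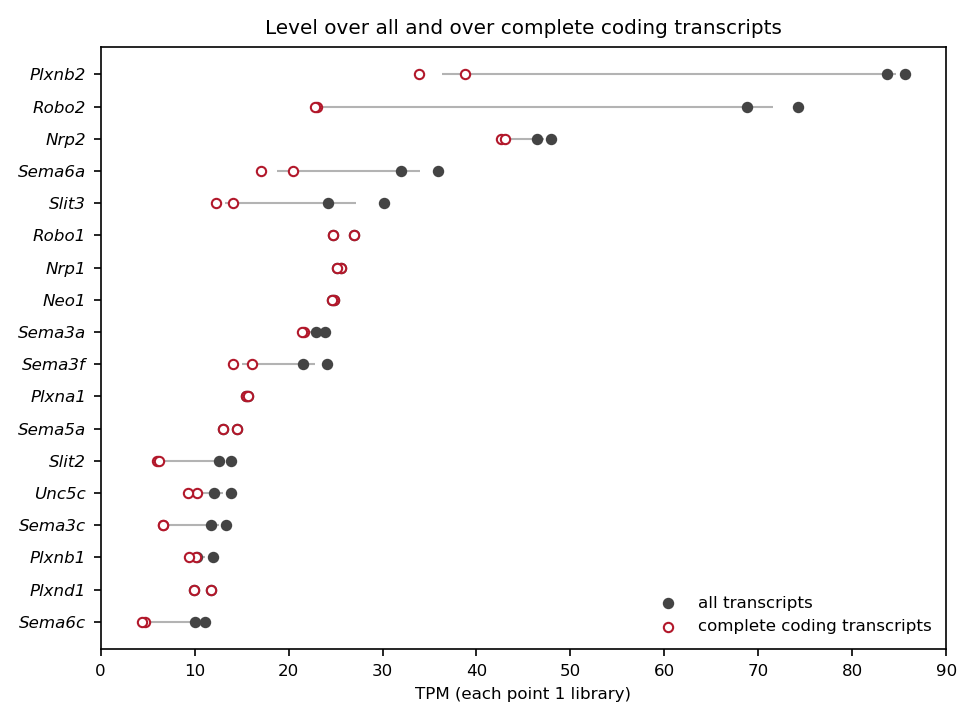
TPM over all transcripts (dark points) and over complete coding transcripts (open red points) in each library, for the guidance genes of at least 10 TPM in mean, ordered by the former. Plxnb2 moves from 84.7 to 36.3 TPM in mean and Robo2 from 71.5 to 22.9, while Nrp2 (42.8 TPM) becomes the highest.

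Counted on complete coding transcripts, the order began with Nrp2 (42.65 and 43.02 TPM), ahead of Plxnb2, Robo1, Nrp1, Neo1 and Robo2. The family sums moved to 80.2 and 87.3 TPM for plexins, 68.3 and 68.2 for neuropilins, 59.2 and 62.0 for membrane semaphorins, 53.4 and 54.0 for secreted semaphorins and 53.0 and 54.6 for Robos. Netrin receptors held 44.4 and 43.4 TPM on this scale and Slits 18.7 and 20.7. This scale was chosen after the data were seen.

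The coding transcripts of Nrp2 divided between alternative ends, which are shown because they change the part of the receptor inside the membrane and the cell. Nrp2 is known to be made with alternative membrane-spanning and cytoplasmic parts, and a form of it resembles Nrp1 there. In the annotation the last coding exon lies either at chr1:62795709-62795989 (281 bases) or at chr1:62815333-62815637 (305 bases, of which the last 300 are printed, from 62815338). The exon before it starts at chr1:62786281 and exists with 21 or 36 bases. The sequences below are given 5′ to 3′ on the plus strand of GRCm38, from the M21 transcripts, with the stop codon, or the 15 bases found only in the longer exon, in capitals. The last coding exon of Nrp1 (chr8:128502525-128502814, plus strand) is given for comparison.
Nrp2-204 last coding exon, last 300 bases: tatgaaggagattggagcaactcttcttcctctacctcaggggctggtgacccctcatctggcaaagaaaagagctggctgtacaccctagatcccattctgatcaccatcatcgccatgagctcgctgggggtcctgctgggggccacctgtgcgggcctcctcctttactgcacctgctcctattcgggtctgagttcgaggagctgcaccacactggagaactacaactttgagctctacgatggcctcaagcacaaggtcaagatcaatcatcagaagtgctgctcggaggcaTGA
Nrp2-201 last coding exon: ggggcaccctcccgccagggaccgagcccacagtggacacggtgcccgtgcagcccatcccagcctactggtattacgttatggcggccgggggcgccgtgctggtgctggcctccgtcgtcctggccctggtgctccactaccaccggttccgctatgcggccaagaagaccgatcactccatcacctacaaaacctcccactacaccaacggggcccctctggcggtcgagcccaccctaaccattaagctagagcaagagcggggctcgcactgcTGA
Nrp1-201 last coding exon: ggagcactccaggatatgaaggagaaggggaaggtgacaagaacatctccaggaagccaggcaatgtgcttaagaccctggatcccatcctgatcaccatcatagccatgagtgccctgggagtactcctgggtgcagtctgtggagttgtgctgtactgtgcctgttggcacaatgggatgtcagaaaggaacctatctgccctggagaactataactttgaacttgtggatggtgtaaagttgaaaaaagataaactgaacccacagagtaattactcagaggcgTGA
Nrp2-204 exon before the last: aacccatatcagcttttgcag
Nrp2-201 exon before the last: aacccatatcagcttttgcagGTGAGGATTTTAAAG

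In a global alignment the 305-base ending was 57.1% identical to the last coding exon of Nrp1, and the 281-base ending 45.1%. The Nrp2 endings were 46.8% identical to each other. No unrelated exons were aligned, so these values have no baseline. The 305-base ending held 24.23 and 25.32 TPM, or 56.8% and 58.9% of the coding TPM of Nrp2, and the 281-base ending 18.42 and 17.70 TPM, or 43.2% and 41.1%. Both endings were therefore present at like levels, the 305-base one higher in each library. In the transcript estimates the ending went with the exon before it. Beside the 305-base ending, the 21-base form of that exon measured 18.76 and 18.75 TPM and the 36-base form 1.40 and 1.67. Beside the 281-base ending, the 36-base form measured 13.92 and 13.01 TPM and the 21-base form 4.50 and 4.69. These models, Nrp2-201 of 4216 nt and Nrp2-205 of 6534 nt, also differ outside that exon. Their split therefore does not rest on the exon alone. A further set with the 305-base ending, which carries an extra exon of 51 bases at chr1:62812534-62812584, measured 4.07 and 4.90 TPM. With posterior mean values the 305-base ending held 56.8% and 58.8%, and beside it the 21-base form had 16.71 and 16.11 TPM and the 36-base form 2.91 and 3.67. The 36-base form there was thus over 2 times its first estimate, and still below the 21-base form.

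**Figure D4:**
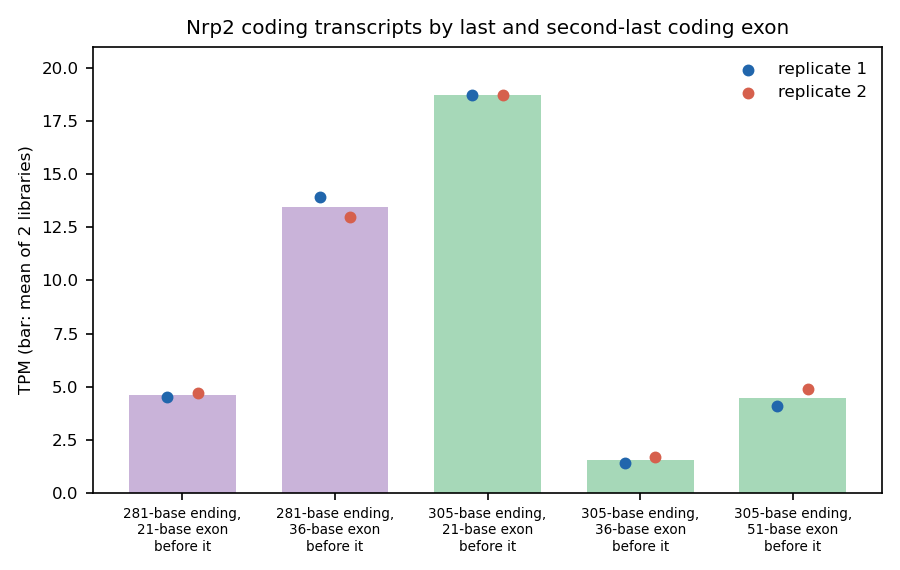
TPM of Nrp2 coding transcripts grouped by last coding exon (281 or 305 bases) and by the coding exon before it (21, 36 or 51 bases); bars are means of both libraries and points are replicate 1 (blue) and replicate 2 (red). In the estimates the 305-base ending goes mostly with the 21-base exon (18.8 TPM) and the 281-base ending mostly with the 36-base exon (13.5 TPM). The models with the 281-base ending also differ outside that exon.

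Promoter sequence was described from RefSeq (GRCm38.p6) for the 38 members with an entry, using the 250 bases before the start and, where a gene has several starts, the window richest in CpG, that is the dinucleotide CG, which reads the same on both strands. At least 10 CpG were found for 73.7% of these members, beside 55.4% of 16317 protein-coding genes. Split by detection, 22 of 27 detected members (81.5%) and 6 of 11 not detected (54.5%) had such a window, beside 80.7% and 20.1% of protein-coding genes. The detected members were thus close to detected genes at large. The range among high members was wide. Neo1 and Sema3a, with mean levels of 24.7 and 23.4 TPM, had the most and the fewest CpG of the members above 20 TPM with a lone RefSeq start, 45 and 2. The RefSeq start of Sema3a is that of Sema3a-202, the lower of its main transcripts, and Sema3a-201 starts at chr5:13399309, so the whole-gene level does not belong to this promoter alone. The promoters are shown for the contrast in CpG, picked after the values were seen, as 200 bases that end 50 bases before the start, with each CpG in capitals (34 and 2). The Neo1 window is chr9:59036492-59036691, minus strand, and the Sema3a window chr5:13396534-13396733, plus strand.
Neo1: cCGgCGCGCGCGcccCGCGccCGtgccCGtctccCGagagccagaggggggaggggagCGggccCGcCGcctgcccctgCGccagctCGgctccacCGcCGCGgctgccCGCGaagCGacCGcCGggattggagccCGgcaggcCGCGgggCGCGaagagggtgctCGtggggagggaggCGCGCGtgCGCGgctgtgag
Sema3a: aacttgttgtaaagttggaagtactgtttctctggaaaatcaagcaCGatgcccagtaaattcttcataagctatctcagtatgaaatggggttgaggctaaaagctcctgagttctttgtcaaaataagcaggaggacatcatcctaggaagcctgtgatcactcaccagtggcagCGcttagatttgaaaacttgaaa

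The guidance genes were called between the pools about as often as genes at large. An exact binomial test of how the counts of a gene divide between the libraries was run on genes whose total was at least 20, and genes were called at a Benjamini-Hochberg adjusted p under 0.05 with a log2 ratio, replicate 2 over replicate 1, of at least 1 in size. Of 46 members tested 1 was called (2.17%), beside 518 of 16787 genes (3.09%, with 1.48% higher and 1.6% lower in replicate 2). It was Sema7a, with 20 counts in replicate 1 and 42 in replicate 2, a log2 ratio of 1.37 and an adjusted p of 0.00199. With edgeR's exact test, which adds a biological coefficient of variation of 7.65% estimated over 16118 genes, its adjusted p was 0.0530 and no member was called, beside 1.31% of genes. In that test 7 of 46 members (15.2%) had an unadjusted p under 0.05, beside 9.42% of genes. The variation in edgeR's test was estimated from these same 2 libraries taken as replicates, and it also holds technical spread. The differences under test thus entered the variance, so a typical difference could not pass, and not passing does not show that the pools agree. Plxnb3, with 18 counts in all, was below the minimum for testing and had a log2 ratio of -2.41.

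Over all members tested, the called Sema7a included, differences were more often upward than downward in replicate 2. A log2 ratio above 0 was found for 30 of 46 members, beside 48.3% of genes, and the member median was 0.08, beside -0.01 over all genes tested. With no limit on size, 18 members (39.1%) passed the binomial test, beside 29.6% of genes, and 17 of the 18 were higher in replicate 2. Against genes of like level, 12 members (26.1%) lay above the 95th percentile of the log2 ratio, beside 4.99% of genes, and Plxnc1 lay below the 5th. The 12 were Sema6a, Ntn1, Sema5a, Robo1, Plxna2, Plxnd1, Plxnb2, Sema7a, Slit3, Dcc, Sema3e and Unc5d. Among members of over 10 TPM the sizes were small, such as 0.27 for Slit3 (adjusted p = 2.7e-07 by the binomial test and 0.701 by edgeR's) and 0.20 for Plxnb2 (1.44e-14 and 0.900). After a smooth on transcript length was removed, the member median was 0.02, 24 of 46 were above 0 and 6 members (13.0%) stayed above the 95th percentile, beside 5% of genes. Of the marker lists, ectoderm genes summed to 146 and 155 TPM and endothelial genes to 202 and 182, and no marker gene was called. Pitx1, a hindlimb gene, measured 154.78 and 114.25 TPM (log2 ratio -0.38, adjusted p = 1.71e-53 by the binomial test and 0.296 by edgeR's). Tbx5, a forelimb gene, measured 23.45 and 25.71 TPM (log2 ratio 0.18), and Tbx4, a hindlimb gene, 28.81 and 27.29 (log2 ratio -0.02). Of the other marker lists, macrophage genes summed to 45.0 and 39.0 TPM, Schwann and crest genes to 24.5 and 21.9, and myogenic genes to 62.2 and 58.6. Neuron genes summed to 41.0 and 43.7 and limb mesenchyme genes to 778 and 744. These sums are in deposited TPM, which rescaling to gene entries multiplies by 1.13 in replicate 1 and 1.21 in replicate 2. The part of the marker differences in the members' ratios was not tested.

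**Figure D5:**
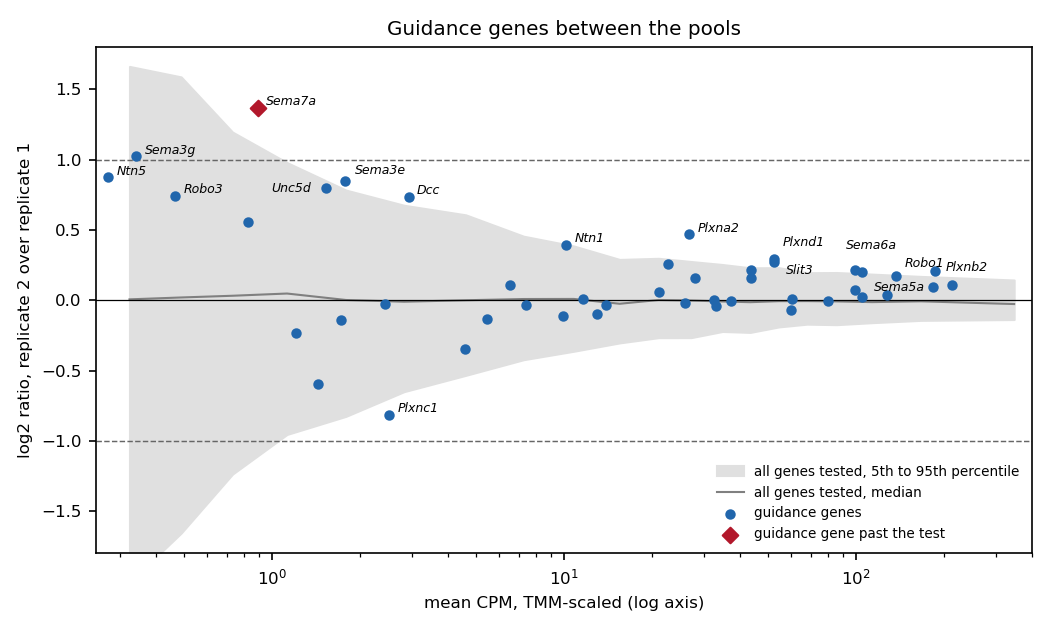
Log2 ratio of replicate 2 over replicate 1 against mean CPM (log axis) for the 46 guidance genes tested; the grey band spans the 5th to 95th percentile of all 16787 genes in 20 bins of level and dashed lines mark a log2 ratio of 1 in size. Only Sema7a (red diamond) passed the binomial test together with the limit on size, Sema3g at 1.02 from 24 counts did not, and 12 members lie above the band.

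Most of the listed intracellular and co-receptor partners of these pathways were present. The lists held 87 symbols, of which 85 had an entry. The others, Plgf and Hjv, are further names of the listed Pgf and Hfe2, so no listed gene was missing. Of the 85 genes 70 were detected (82.4%), beside 56.3% of protein-coding genes. The median of those with an entry was 10.3 TPM, beside 3.02 for protein-coding genes. The lists were picked by hand, so these shares describe the lists only. Of the semaphorin and plexin list 25 of 26 genes were detected. Its highest were Cfl1 (cofilin) at 2267 and 2023 TPM, Dpysl2, which encodes the CRMP2 mediator of Sema3a signalling, at 247 and 242, Rap1b at 172 and 146, and Gipc1 at 140 and 121. Of the holoreceptor list 12 of 17 were detected, led by Itgb1 at 147.15 and 147.36 TPM, Ptk7 at 47.47 and 36.98, Erbb2 at 23.37 and 22.59 and the VEGF receptor Kdr at 14.47 and 16.42. Named after their values were seen, L1cam and Nrcam, neural adhesion molecules that pair with neuropilins in axons, were below 1 TPM, at 0.94 and 0.63 and at 0.47 and 0.49.

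Of the Slit and Robo list 20 of 22 genes were detected. The adaptor Nck1 had 63.11 and 56.37 TPM, Flrt3, a membrane protein that binds Robo and Unc5 receptors, 57.58 and 55.48, Vasp 49.29 and 48.69 and the kinase Abl1 45.54 and 44.96. Of the netrin and neogenin list 13 of 20 were detected, with the glypican Gpc3 at 1103 and 1006 TPM, Ptk2 (focal adhesion kinase) at 59.31 and 63.53, Pitpna at 52.85 and 52.08 and Dock1 at 30.52 and 33.19. The netrin-binding receptor Dscam, also named after its values were seen, was at 0.03 and 0 TPM, and its relative Dscaml1 at 0.01 and 0.17. Of 80 partners tested 2 passed the between-pool binomial test together with the limit on size, beside 3.09% of genes. They were Nell1, a secreted protein related to the Robo3 ligand Nell2 (41 and 90 counts, log2 ratio 1.44), and Dscaml1 (1 and 25 counts).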

How the data were processed

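The report covers 2 libraries of 1 group. Per the labels' protocols, RNA was extracted with the mirVana kit and a Smart-seq protocol is linked. The authors deposited expected counts (estimated reads, not normalised), TPM and, for each transcript, its percent of the TPM of the gene, quantified per the file headers from transcriptome alignments to mm10 with GENCODE M4. For the aligner, tool versions and strand setting the sources used here give nothing. The deposited TPM are scaled over all entries, spike-ins included, and spike-ins took 5.37% and 7.92% of counts. All 97 spike-in and 26248 number-only entries (6.29e-05% and 4.76e-05% of counts) entered neither library sizes nor tests.

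Symbols, types, coordinates and exons came from GENCODE M21 on GRCm38, the build of mm10, so gene models can differ from M4. Of 43346 gene identifiers 42462 matched a symbol, and 258 of 260 transcripts of the members matched a type. Expected counts were rounded and scaled by TMM in edgeR 4.0.16 (R 4.3.3), with effective library sizes of 40.4 M for replicate 1 and 32.5 M for replicate 2. Log2 ratios used a prior count of 0.5. An exact two-sided binomial test with Benjamini-Hochberg adjustment ran over all genes with at least 20 counts. As an alternative, edgeR's exact test was used, since 1 group allows no quasi-likelihood contrast. Its dispersion was estimated from the same 2 libraries taken as replicates. Exons were aligned globally with Biopython 1.88 (match 1, mismatch -1, gap opening -4, extension -0.5), and identity was taken over all aligned columns.

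Members were all named, with values in each library. Isoforms were named for members of at least 5 TPM in which transcripts of different kind or sequence each held at least 20 percent, and partners as the 4 highest of each list and those past the test, beside others said to be named after their values were seen. The members and lists were chosen with earlier results of these data known. Alternatives covered the TPM estimate and scaling, detection threshold, count minimum, normalisation, prior count, isoform threshold and leaving out a replicate.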

Additional observations from a re-analysis of the deposited data

How the results depend on the processing

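No paired analysis was possible because the labels give 1 group. The number of detected members stayed between 33 and 37 at a threshold of 0.5 or 1 TPM and under every other alternative tried, and was 22 at 5 TPM. The number of detected partners ranged from 52 at 5 TPM to 74 at 0.5 TPM. The median level of members was 5.41 TPM with posterior mean values, 5.83 with TPM rescaled to gene entries and 4.25 on complete coding transcripts, an alternative added after seeing the data, and leaving out a replicate gave 4.73 to 4.95. On complete coding transcripts 14 of 47 members fell by more than 1.5 times, Plxnb2, Robo2, Sema6a, Slit3, Slit2 and Sema3c among them. Members called between the pools numbered 2 with no count minimum (Plxnb3 and Sema7a), 0 with at least 100 counts (40 tested, 21 or 52.5% with an unadjusted p under 0.05, beside 43.1% of genes), 0 by edgeR's exact test and 18 with no size limit. The calls over all genes were 711 (3.01%) with no count minimum, 75 with at least 100 counts, 220 by edgeR's exact test and 4975 with no size limit. The other scalings left 1 member called, Sema7a, and 509 to 518 genes. The median log2 ratio of members stayed above 0 in each of the 5 alternatives run. A dominant coding transcript was found for 20 members when the level was lowered to 1 TPM, for 9 at 75 percent, and for 14 to 15 on leaving out a replicate. Depth limits the lowest members: below 1 TPM a gene rests on 2 to 130 counts in a library, and TPM there also moves with the estimated length.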

Other observations

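The guidance genes occupy long stretches of the genome. By GENCODE M21 the median member spans 108 kb, and 25 of 47 (53.2%) span over 100 kb, beside a median of 17.7 kb and 11.5% for protein-coding genes. Dcc is the longest at 1097 kb and Sema4c the shortest at 9.71 kb. The Slits had the longest median of the families (325 kb) and the membrane semaphorins the shortest (27.9 kb). The 33 detected members had a median of 124 kb and the 14 others 42.2 kb.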
